A study of Equus caballus with 9 samples.

Results

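The unfolded protein and ATF4 stress response was read across 3 kinds of cultured equine cells through 44 member genes. They were chosen by name for their place in the pathway, with earlier results of these data known. A member was measured where the platform annotation gave its symbol to a probe set naming no other gene. This held for 43 of the 44 members, each with 1 probe set, out of 16661 genes measured in this way. VLDLR-AS1 had no probe set under its name and has no value here. The measured members comprised 15 chaperones and folding enzymes of the endoplasmic reticulum (ER), 4 genes of ER-associated degradation and translocation, and 4 genes of sensors and XBP1. A further 20 belonged to the amino acid response, as 7 regulators around ATF4, 7 enzymes of amino acid and folate metabolism, 3 amino acid transporter subunits and 3 tRNA synthetases.

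Bone marrow cells (BM-MSC, n = 3) came from 3 untreated horses, and adipose cells (AD-MSC, n = 3) from tailhead fat of untreated horses whose number the labels do not give. Blood-derived cells (EA-ADSC, n = 3) were grown from blood mononuclear cells of 3 horses. These horses were bled 2 h after electroacupuncture, that is, acupuncture with needles carrying an electric current. The labels call all 3 groups mesenchymal and give no breed, sex or age. All cultures grew for 96 h with 15% fetal bovine serum, and the attached cells gave 100 ng of RNA for amplification and hybridization to an Affymetrix array. Tissue, treatment and horse differ together between the blood-derived group and the others, so no difference below can be given to electroacupuncture alone. The labels name no run or scan date, and handling of the adipose arrays cannot be told apart from their tissue.

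Proteins that enter the ER are folded by chaperones and disulfide isomerases. When unfolded protein accumulates, the membrane sensors ATF6, IRE1 (encoded by ERN1) and PERK (encoded by EIF2AK3) raise the transcription of these helpers, IRE1 by splicing the XBP1 mRNA. PERK also phosphorylates the initiation factor eIF2, as does the amino acid sensor GCN2, and this favours translation of the ATF4 mRNA. ATF4 then drives genes for amino acid synthesis, uptake and tRNA charging. Mesenchymal stromal cells secrete collagen and other matrix proteins and so depend on the folding machinery. The arrays measured mRNA at the gene level, and neither XBP1 splicing nor ATF4 protein was read.

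Values are log2 intensities as deposited, and a difference of 1 on this scale is a 2-fold change of intensity. They ran from 0.86 to 13.56 in the whole table, with a median of 4.62. Means are given ± SD of n = 3 arrays, differences with their SE, and adjusted p-values come from limma across all 30559 probe sets with a threshold of 0.05. The 12 mesenchymal stromal markers had array means of 8.92 to 9.42 in bone marrow, 8.39 to 8.65 in blood-derived and 7.94 to 8.31 in adipose arrays. Of these 12, 6 were called lower and 1 higher in adipose than bone marrow cells (median difference -0.86), and 5 higher and 1 lower in blood-derived than adipose cells (median 0.28). DCN and LUM were bright in every group (means from 11.53 to 12.85), whereas VCAM1 had means of 8.84, 3.97 and 5.28 in bone marrow, blood-derived and adipose cells. The pan-leukocyte gene PTPRC stayed at group means from 3.10 to 3.97 and the endothelial gene PECAM1 at 3.11 to 3.53, below the table's median. Over 12 leukocyte and macrophage markers the array means ran from 4.75 to 5.58 in bone marrow, 4.08 to 4.25 in blood-derived and 4.33 to 4.69 in adipose arrays. Unlike PTPRC, some of these 12 lay above the table's median, 4 to 6 per bone marrow array, 2 to 3 per blood-derived array and 2 to 4 per adipose array. Of 7 endothelial markers, 2 lay above that median in each of blood-derived replicates 1 and 2, and 0 in every other array. The 17 cell cycle genes had array means of 5.79 to 6.12 in bone marrow, 7.52 to 8.31 in blood-derived and 6.70 to 8.22 in adipose arrays. Over 7 adipocyte markers the means were 4.67 to 4.98, 4.44 to 4.51 and 5.28 to 6.41. The part of these stromal, other cell type and cell cycle markers in the results below was not tested. In cultures read in bulk, fewer cells of a type and less RNA per cell cannot be told apart.

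Adipose cells had lower mRNA of much of the response than either other group. By the moderated F test 17 of the 43 members differed among the groups, against 7.48% of all probe sets. Blood-derived cells were higher than adipose cells in 21 members, with a background of 3.49% of probe sets called higher, and lower in 0, with a background of 3.43% called lower. At an unadjusted p under 0.05, 27 members were higher and 0 lower. Adipose cells were lower than bone marrow cells in 14 members, where 3.25% of probe sets were called lower, and higher in 0, where 2.83% were called higher. At an unadjusted p under 0.05 the counts were 25 lower and 1 higher. These 2 comparisons share the adipose arrays. Blood-derived against bone marrow cells gave 1 member called higher, with 0.35% of probe sets called, and 0 called lower, with 0.465%. Here 8 members were higher and 2 lower at an unadjusted p under 0.05. At that cut, 3976, 3945 and 2396 of the 16661 genes were counted in either direction in the 3 comparisons, in the order given. The adipose group had the lowest of the 3 means in 35 of the 43 members (81.4%), compared with 37.8% of all genes.

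The number of calls changed when single arrays were left out, among the members and among all probe sets. Without adipose replicate 3, 13 members were called higher in blood-derived than in adipose cells, and 10 were called by the F test. Over all probe sets, calls in either direction between blood-derived and adipose cells then fell from 2116 to 1341. Without bone marrow replicate 1 or replicate 2, 8 members were called lower in adipose than in bone marrow cells. The 1857 probe sets called in either direction in this comparison then became 849 and 926, in that order. Fitting only the 2 groups compared also ended calls. Between blood-derived and adipose cells 12 of the 21 calls were left, those of CALR, PDIA3, MANF, SEL1L, XBP1, ASNS, PSAT1, MTHFD2 and ALDH1L2 being lost (adjusted p = 0.051 to 0.124). Between adipose and bone marrow cells 10 of the 14 were left, those of PDIA3, CHAC1, PSAT1 and ALDH1L2 being lost (0.0505 to 0.0943), and EDEM1 lost its call between blood-derived and bone marrow cells (0.0631). Median centring of the arrays ended the calls of EDEM1 against bone marrow cells (0.0582), of PDIA3 between adipose and bone marrow cells (0.0578), and of SEL1L, PSAT1 and MTHFD2 between blood-derived and adipose cells (0.0618, 0.0538 and 0.0516). Quantile normalization ended those of SEL1L (0.0583) and PSAT1 (0.0503) between blood-derived and adipose cells.

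Members were brighter than most genes, and among the 10390 genes with a mean above the table's median 7.36% were called higher in blood-derived than adipose cells and 7.1% lower in adipose than bone marrow cells.

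**Figure D1:**
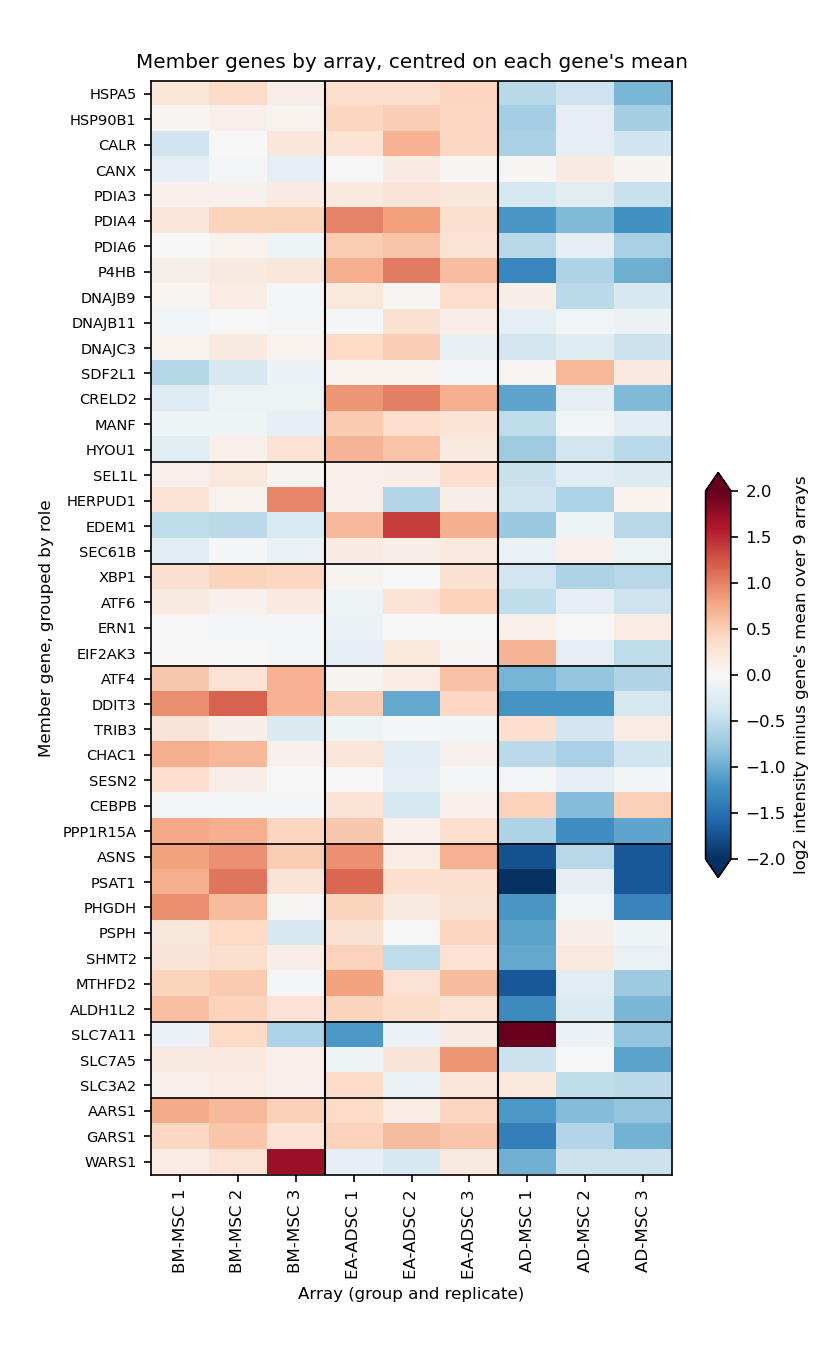
Log2 intensity of the 43 measured members (rows, grouped by role) on the 9 arrays (columns), each gene centred on its own mean over the arrays, with red above and blue below that mean and the colour scale ending at 2 on either side. The adipose columns are blue for most members, with SLC7A11 in adipose replicate 1 (8.94) and WARS1 in bone marrow replicate 3 (10.41) standing out in red.

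The ER chaperones formed the group in which blood-derived cells stood highest. All 15 were measured, and the blood-derived group had the highest mean of the 3 groups in 13 of them, against 32.1% of all genes. Compared with adipose cells, 10 of the 15 were higher (4.99% of all genes) and 0 lower (4.15%), with a median difference of 0.87 (all genes, 0). Adipose cells were below bone marrow cells in 4 of the 15 (4.75% of all genes), with a median of -0.46. Between blood-derived and bone marrow cells 0 of the 15 passed the threshold by limma. An unadjusted p under 0.05 was seen in 6 of the 15, against 2396 of all 16661 genes. All 15 differences lay above 0 (8415 of all genes), with a median of 0.37. In that comparison 9 chaperones had all blood-derived arrays above all bone marrow arrays, where 11.5% of all genes did.

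PDIA4, a disulfide isomerase of the ER, differed most among the chaperones. Its log2 intensity was 7.87, 8.08 and 8.08 in bone marrow replicates 1 to 3, 8.62, 8.45 and 7.95 in blood-derived replicates and 6.47, 6.75 and 6.42 in adipose replicates. All 3 adipose arrays lay more than 1 unit below every other array, and the other groups overlapped. Blood-derived exceeded adipose cells by 1.79 ± 0.19 (SE), or 3.46-fold (adjusted p = 0.00134), and adipose cells were 2.76-fold below bone marrow cells (adjusted p = 0.0036).

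P4HB, which is both a disulfide isomerase and the beta subunit of collagen prolyl 4-hydroxylase, separated all 3 groups. Its values were 9.52, 9.58 and 9.64 in bone marrow, 10.14, 10.44 and 10.03 in blood-derived and 8.10, 8.79 and 8.43 in adipose arrays. No groups overlapped. The blood-derived cells were 3.39-fold above adipose cells (1.76 ± 0.19, adjusted p = 0.00145), and the adipose cells 2.21-fold below bone marrow cells (adjusted p = 0.0112). The difference of 0.62 from bone marrow cells did not pass (adjusted p = 0.216).

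HSPA5 encodes BiP, the Hsp70 chaperone of the ER that also holds the sensors inactive. It stood at 10.56, 10.70 and 10.46 in bone marrow arrays, 10.68, 10.67 and 10.76 in blood-derived arrays and 9.77, 9.91 and 9.41 in adipose arrays. Only the adipose arrays were apart, while bone marrow and blood-derived arrays overlapped. Adipose cells were 2.01-fold below blood-derived cells (adjusted p = 0.00626) and 1.84-fold below bone marrow cells (adjusted p = 0.0124). The second call was lost without bone marrow replicate 1 or 2, with adjusted p up to 0.0545. The interval of the difference between blood-derived and bone marrow cells ran from -0.21 to 0.47.

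HSP90B1 encodes GRP94, the ER form of Hsp90. Its values were 11.21, 11.27 and 11.24 in bone marrow, 11.61, 11.67 and 11.58 in blood-derived, and 10.49, 10.98 and 10.51 in adipose arrays. The 3 groups did not overlap, and adipose replicate 2 lay nearest to the bone marrow arrays. The blood-derived cells exceeded adipose cells by 0.96 ± 0.15 (adjusted p = 0.00706). The difference of -0.58 between adipose and bone marrow cells had an adjusted p of 0.0556, and 0.0112 without adipose replicate 2. Quantile normalization (0.0397), leaving out dim probe sets (0.0305), an intensity trend (0.0258) and averaging probe sets per gene (0.0275) also gave a call. Median centring, the replicate block and fitting those 2 groups alone did not.

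CRELD2 is an ER protein induced by unfolded protein stress. It measured 7.97, 8.12 and 8.12 in bone marrow, 9.11, 9.24 and 8.95 in blood-derived and 7.17, 8.03 and 7.35 in adipose arrays. Every blood-derived array was above all 6 others, and adipose replicate 2 fell within the bone marrow range. Blood-derived cells were 2.99-fold above adipose cells (1.58 ± 0.21, adjusted p = 0.00431) and 2.04-fold above bone marrow cells (1.03 ± 0.21). The latter difference missed the threshold (adjusted p = 0.0793) and passed it without adipose replicate 2 (0.016), where adipose cells were also called below bone marrow cells (0.0203). The difference between blood-derived and bone marrow cells also passed without dim probe sets (0.0433), with probe sets averaged per gene (0.0345) and with those 2 groups alone (0.0301). Quantile normalization, median centring, an intensity trend and the replicate block gave no call.

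PDIA6, another isomerase, gave 9.94, 10.01 and 9.85 in bone marrow, 10.44, 10.51 and 10.23 in blood-derived and 9.38, 9.76 and 9.29 in adipose arrays. The groups did not overlap, and the difference of 0.91 between blood-derived and adipose cells was called (adjusted p = 0.0104). Adipose cells were lower than bone marrow cells by a called amount when adipose replicate 2 was left out (adjusted p = 0.0475, and 0.129 with it). PDIA3, the isomerase that works on glycoproteins held by calnexin and calreticulin, was at 11.56, 11.56 and 11.64, at 11.68, 11.74 and 11.71, and at 11.13, 11.25 and 11.03 in the same order of groups. Its 3 groups were also separate, with much smaller differences of 0.57 from adipose to blood-derived cells (adjusted p = 0.0162) and -0.45 from bone marrow to adipose cells (adjusted p = 0.0439). The first was lost without blood-derived replicate 2 or 3 or adipose replicate 3 (up to 0.0571), and the second was kept in 1 of 9 fits, that without adipose replicate 2 (up to 0.139 in the others).

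HYOU1, a large Hsp70-like chaperone, was at 6.16, 6.49 and 6.68 in bone marrow, 7.06, 6.96 and 6.58 in blood-derived and 5.67, 6.02 and 5.84 in adipose arrays. The adipose arrays lay lowest without overlap, and blood-derived cells were 2.03-fold above them (adjusted p = 0.0153, and up to 0.0571 without blood-derived replicate 1 or 2). CALR, the lectin chaperone calreticulin, was at 8.81, 9.21 and 9.42, at 9.47, 9.90 and 9.62, and at 8.56, 9.02 and 8.80. The blood-derived arrays were the highest of all 9, and the bone marrow and adipose arrays overlapped. CALR was 1.83-fold higher in blood-derived than adipose cells (adjusted p = 0.0366), a call kept in 3 of 9 fits and lost without bone marrow replicate 2, any blood-derived replicate or adipose replicate 1 or 3 (up to 0.112). MANF, a secreted ER stress factor, read 10.45, 10.45 and 10.37, then 11.06, 10.88 and 10.82, and 10.03, 10.48 and 10.32. Its blood-derived arrays were likewise above all others, by 0.65 over adipose cells (adjusted p = 0.0312), but the call was kept in 1 of 9 fits, that without adipose replicate 2 (up to 0.0914 in the others).

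The other 5 chaperones did not pass in any comparison. The Hsp40 co-chaperones DNAJB9, DNAJB11 and DNAJC3 were higher in blood-derived than adipose cells by 0.45, 0.26 and 0.59. DNAJC3 passed without blood-derived replicate 3 (adjusted p = 0.0186, and 0.0838 with it). DNAJC3 also passed without dim probe sets (0.0492) and with probe sets averaged per gene (0.0473). The other changes of processing gave it no call. CANX, the membrane lectin calnexin, was nearly level, at 9.34 ± 0.09 in bone marrow, 9.54 ± 0.09 in blood-derived and 9.56 ± 0.07 in adipose cells. SDF2L1, a partner of the Hsp40 proteins, ran the other way from most members. It read 6.67, 6.92 and 7.13 in bone marrow, 7.31, 7.31 and 7.22 in blood-derived and 7.29, 7.90 and 7.44 in adipose arrays. All adipose arrays were above all bone marrow arrays, by 0.63 ± 0.18 with an adjusted p of 0.0868. That value was 0.0468 after quantile normalization and 0.0489 with probe sets averaged per gene.

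**Figure D2:**
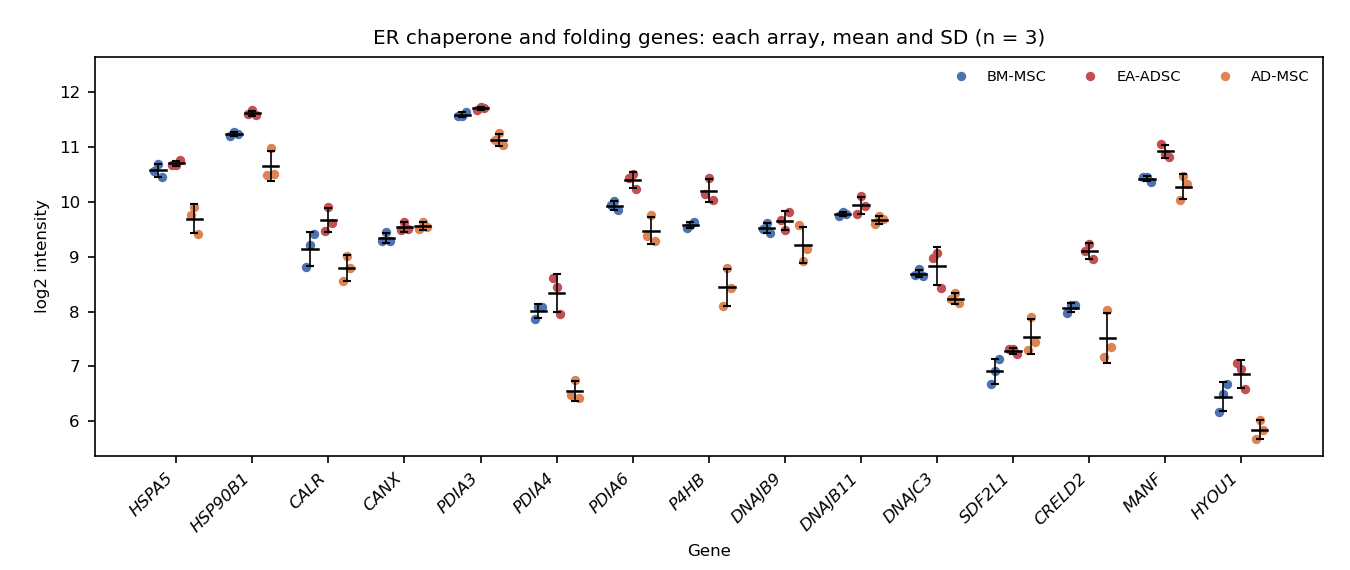
Log2 intensity of the 15 ER chaperone and folding members in bone marrow (blue), blood-derived (red) and adipose cells (orange), with 1 point per array and black bars for the mean and SD of n = 3. In PDIA4 and P4HB the adipose arrays lie between 6.42 and 8.79, below all others of the same gene, while CANX differs little.

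Among the genes that clear misfolded proteins, EDEM1, a mannosidase-like protein that directs misfolded glycoproteins to degradation, was the 1 member called higher in blood-derived than bone marrow cells. Its values were 6.46, 6.45 and 6.67 in bone marrow, 7.62, 8.36 and 7.68 in blood-derived and 6.23, 6.87 and 6.41 in adipose arrays. The blood-derived arrays lay above the other 6, which overlapped with one another. EDEM1 was 2.57-fold above bone marrow cells (1.36 ± 0.24, adjusted p = 0.0447) and 2.61-fold above adipose cells (1.38 ± 0.24, adjusted p = 0.0116). The latter call was kept in 9 of 9 fits that left out an array. The former was kept in 1 of them, that without adipose replicate 2, with adjusted p up to 0.163 in the others and differences from 1.12 to 1.50.

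SEL1L, the adaptor of the HRD1 ubiquitin ligase, read 5.85, 5.96 and 5.81 in bone marrow, 5.85, 5.88 and 6.08 in blood-derived and 5.30, 5.54 and 5.47 in adipose arrays. The adipose arrays were lowest without overlap. The difference of 0.50 from blood-derived cells had an adjusted p of 0.0458 and was called in 0 of 9 fits that left out an array (0.0534 to 0.139). HERPUD1, a membrane component of the same machinery, did not pass, at 8.11 ± 0.47, 7.54 ± 0.40 and 7.35 ± 0.35 in bone marrow, blood-derived and adipose cells. SEC61B, a subunit of the translocation channel, was at 11.72 ± 0.09, 12.02 ± 0.03 and 11.81 ± 0.13, and did not pass either.

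Of the 3 sensors and XBP1, XBP1 was the 1 member with a call. XBP1, the transcription factor whose mRNA is spliced by IRE1, was at 8.48, 8.61 and 8.57 in bone marrow, 8.22, 8.17 and 8.46 in blood-derived and 7.78, 7.54 and 7.61 in adipose arrays. The 3 groups did not overlap, and bone marrow arrays were the highest, unlike the chaperones. Adipose cells were 1.88-fold below bone marrow cells (-0.91 ± 0.13, adjusted p = 0.00508, kept in 9 of 9 fits that left out an array). Blood-derived cells were 1.56-fold above adipose cells (adjusted p = 0.0201, lost without blood-derived replicate 3 or adipose replicate 3, up to 0.0653, and with those 2 groups fitted alone, 0.0738). The difference of -0.27 between blood-derived and bone marrow cells did not pass (adjusted p = 0.472).

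ATF6, the sensor that is cut to release a transcription factor, stood at 6.87 ± 0.06, 6.93 ± 0.28 and 6.35 ± 0.16 in bone marrow, blood-derived and adipose cells. Its adipose arrays were below all others. The difference of 0.58 from blood-derived cells (95% interval 0.21 to 0.95) had an adjusted p of 0.0714, which was 0.0304 without blood-derived replicate 1, 0.0409 without dim probe sets and 0.0388 with probe sets averaged per gene. The difference of -0.53 between adipose and bone marrow cells (-0.89 to -0.16) had an adjusted p of 0.102. ERN1 was dim, with group means from 3.97 to 4.10, below the median of the table. EIF2AK3 had means of 5.62, 5.65 and 5.63, and the 95% intervals of its differences reached from -0.61 to 0.66, so changes of that size could not be told from none. Adipose replicate 1 was at 6.31 and the other 2 adipose arrays at 5.44 and 5.13.

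The amino acid response was lowest in adipose cells, and the other groups were close to each other. Of the 20 members, 8 were higher in blood-derived than adipose cells, against 4.99% of all genes, with a median of 0.85. Adipose cells were lower than bone marrow cells in 9, against 4.75% of all genes, with a median of -1.22. Between blood-derived and bone marrow cells 0 passed, and the median was -0.16. In that comparison 2 had an unadjusted p under 0.05, against 2396 of all 16661 genes. The bone marrow group held the highest mean in 12 of the 20 members, and of 0 of the 15 chaperones, against 30.4% of all genes. In 11 of the 20 members all 3 adipose arrays were below all 6 others, compared with 8.88% of all genes.

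ATF4 itself followed this order. Its log2 intensity was 10.25, 10.00 and 10.40 in bone marrow, 9.76, 9.86 and 10.30 in blood-derived and 8.78, 8.93 and 9.11 in adipose arrays. The adipose arrays were apart from both others, which overlapped. Adipose cells were 2.43-fold below bone marrow cells (-1.28 ± 0.18, adjusted p = 0.00577) and 2.05-fold below blood-derived cells (adjusted p = 0.013), and both calls were kept in 9 of 9 fits. The interval for blood-derived minus bone marrow cells was -0.66 to 0.17.

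PPP1R15A encodes GADD34, which brings a phosphatase to eIF2 and ends the block on translation. It read 8.54, 8.50 and 8.21 in bone marrow, 8.32, 7.88 and 8.11 in blood-derived and 7.16, 6.54 and 6.72 in adipose arrays. Again only the adipose arrays were separate. They were 3.05-fold below bone marrow cells (adjusted p = 0.00286) and 2.46-fold below blood-derived cells (adjusted p = 0.00659), and these calls too were kept in 9 of 9 fits.

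DDIT3, encoding the transcription factor CHOP, was at 8.91, 9.17 and 8.68 in bone marrow, 8.48, 6.96 and 8.40 in blood-derived and 6.80, 6.80 and 7.65 in adipose arrays. Bone marrow arrays lay above all others, and blood-derived replicate 2 was at the level of the adipose arrays. Adipose cells were 3.57-fold below bone marrow cells (-1.84 ± 0.42, adjusted p = 0.0391). That call was kept in 3 of 9 fits and lost without any bone marrow replicate, blood-derived replicate 3 or adipose replicate 1 or 2 (up to 0.127). Without blood-derived replicate 2 the blood-derived cells exceeded adipose cells by 1.36 (adjusted p = 0.0476), and with it by 0.86 (0.282).

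CHAC1, which degrades glutathione, stood at 7.08, 7.01 and 6.43 in bone marrow, 6.59, 6.13 and 6.43 in blood-derived and 5.81, 5.70 and 5.95 in adipose arrays. Adipose arrays were lowest without overlap and 2.03-fold below bone marrow cells (adjusted p = 0.0224). The call was lost without bone marrow replicate 1 or 2 or adipose replicate 2 or 3 (up to 0.0859). TRIB3, a pseudokinase that restrains ATF4, SESN2, an inhibitor of mTORC1 signalling, and CEBPB, a partner of ATF4, did not pass in any comparison. The group means were 4.89 to 4.98 for TRIB3, 5.17 to 5.42 for SESN2 and 5.06 to 5.11 for CEBPB, close to the median of the table. The adipose arrays of CEBPB were spread from 4.22 to 5.57.

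ASNS, asparagine synthetase and a standard target of ATF4, had the largest difference among all members. It read 10.59, 10.69 and 10.29 in bone marrow, 10.70, 9.93 and 10.48 in blood-derived and 8.04, 9.22 and 8.08 in adipose arrays. The adipose arrays lay below all others, with replicate 2 more than 1 unit above the other 2. Adipose cells were 4.21-fold below bone marrow cells (-2.07 ± 0.33, adjusted p = 0.00991) and 3.79-fold below blood-derived cells (1.92 ± 0.33, adjusted p = 0.0127). Both were kept in 9 of 9 fits that left out an array, with differences from -2.46 to -1.87 and from 1.72 to 2.31. The call against blood-derived cells was lost when those 2 groups were fitted alone (adjusted p = 0.051).

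PSAT1, the aminotransferase of serine synthesis, was at 8.17, 8.51 and 7.69 in bone marrow, 8.59, 7.77 and 7.77 in blood-derived and 5.47, 7.25 and 5.74 in adipose arrays. Adipose replicate 2 was again the highest of its group, and no adipose array reached the others. PSAT1 was 3.93-fold lower in adipose than bone marrow cells (adjusted p = 0.0446) and 3.71-fold lower than in blood-derived cells (adjusted p = 0.0476). Each call was kept in 1 of 9 fits, that without adipose replicate 2 (0.00724 and 0.0071), with adjusted p up to 0.145 and 0.141 in the others.

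PHGDH, the first enzyme of serine synthesis, was at 6.78, 6.48 and 5.87 in bone marrow, 6.30, 6.03 and 6.16 in blood-derived and 4.68, 5.80 and 4.53 in adipose arrays. The adipose arrays were lowest without overlap, yet the differences of -1.37 and 1.16 missed the threshold (adjusted p = 0.0584 and 0.0931). Without adipose replicate 2 they passed (0.0116 and 0.0154). The difference of -1.37 also passed without dim probe sets (0.0343) and with probe sets averaged per gene (0.0312), and that of 1.16 did not. PSPH, the phosphatase that completes serine synthesis, and SHMT2, which passes the serine carbon to mitochondrial folate, did not pass, with adipose means of 7.90 ± 0.63 and 7.29 ± 0.63 and overlap with both other groups.

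ALDH1L2 and MTHFD2 are mitochondrial enzymes of the folate cycle. ALDH1L2 read 7.16, 7.02 and 6.85 in bone marrow, 7.01, 6.93 and 6.85 in blood-derived and 5.29, 6.29 and 5.65 in adipose arrays. Its adipose arrays were below the others, 2.40-fold under bone marrow cells (adjusted p = 0.0177) and 2.27-fold under blood-derived cells (adjusted p = 0.0207). The first call was lost without bone marrow replicate 1 or 2 or adipose replicate 3 (up to 0.0718), and the second without any blood-derived replicate or adipose replicate 3 (up to 0.0686). MTHFD2 was at 8.09, 8.16 and 7.60, at 8.44, 7.93 and 8.27, and at 5.95, 7.42 and 6.92. The adipose arrays were lowest, without overlap, and the difference of 1.45 from blood-derived cells was called (adjusted p = 0.0444), but in 1 of 9 fits only, that without adipose replicate 2 (0.0203, up to 0.129 in the others). That fit also called MTHFD2 lower in adipose than bone marrow cells (0.0405, and 0.0914 with all arrays).

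The amino acid transporters did not pass in any comparison. SLC7A11, the cystine and glutamate exchanger, varied most of all members within a group. It was at 6.45, 6.97 and 5.96 in bone marrow, 5.43, 6.45 and 6.74 in blood-derived and 8.94, 6.45 and 5.78 in adipose arrays. Adipose replicate 1 was the single high array, and the groups overlapped. SLC7A5, a carrier of large neutral amino acids, had means of 4.92 ± 0.06, 5.11 ± 0.49 and 4.26 ± 0.54. SLC3A2, the heavy chain shared by these carriers, had means of 8.28 ± 0.03, 8.33 ± 0.27 and 7.89 ± 0.42.

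AARS1, alanyl-tRNA synthetase, had the smallest adjusted p of all members. Its values were 8.85, 8.76 and 8.59 in bone marrow, 8.50, 8.26 and 8.54 in blood-derived and 6.96, 7.25 and 7.33 in adipose arrays. The 3 groups did not overlap, with the adipose arrays far below the rest. Adipose cells were 2.93-fold below bone marrow cells (-1.55 ± 0.15, adjusted p = 8.01e-04) and 2.38-fold below blood-derived cells (adjusted p = 0.00226).

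GARS1, glycyl-tRNA synthetase, gave 10.83, 10.98 and 10.71 in bone marrow, 10.88, 11.05 and 10.98 in blood-derived and 9.05, 9.83 and 9.48 in adipose arrays. Here bone marrow and blood-derived arrays overlapped and the adipose arrays were apart. Adipose cells were 2.85-fold below blood-derived cells (adjusted p = 0.00327) and 2.62-fold below bone marrow cells (adjusted p = 0.00521). The calls of AARS1 and GARS1 were kept in 9 of 9 fits. WARS1, tryptophanyl-tRNA synthetase, which is also induced by interferon, was at 8.85, 8.99 and 10.41 in bone marrow, 8.53, 8.37 and 8.87 in blood-derived and 7.73, 8.26 and 8.26 in adipose arrays. Bone marrow replicate 3 stood alone, and the difference of -1.33 between adipose and bone marrow cells did not pass (adjusted p = 0.0885).

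**Figure D3:**
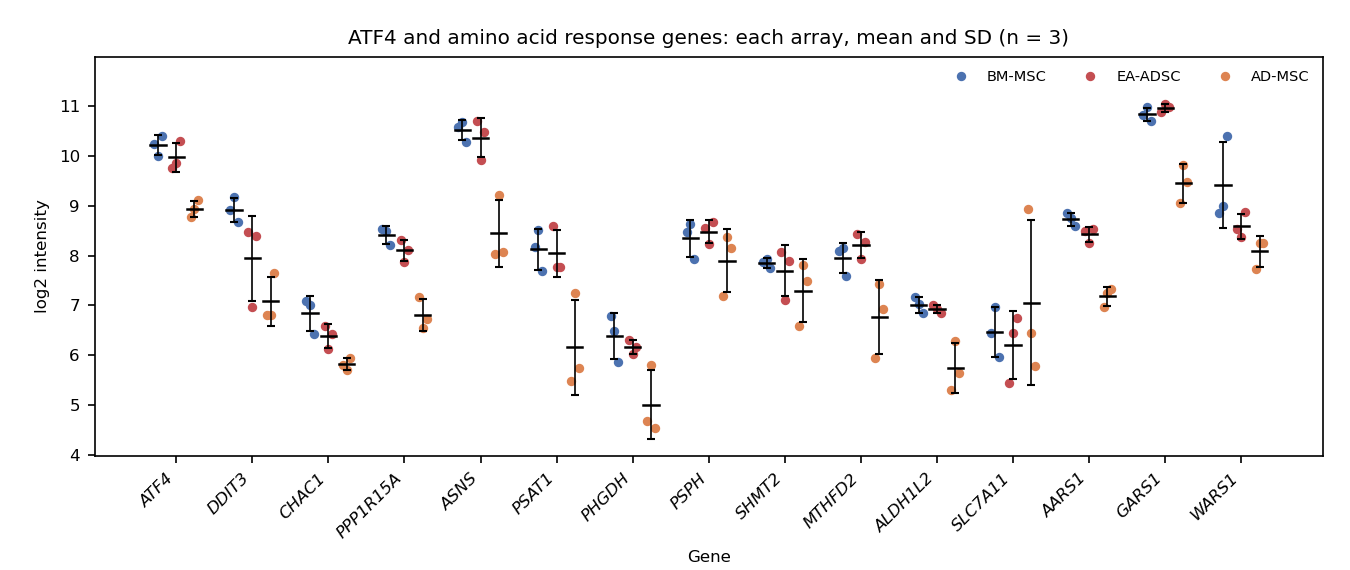
Log2 intensity of 15 of the 20 amino acid response members by array, in bone marrow (blue), blood-derived (red) and adipose cells (orange), with black bars for the mean and SD of n = 3. Adipose arrays lie below the others in ATF4, ASNS and AARS1, adipose replicate 2 (middle orange point) is the highest of its group in the 7 synthesis enzymes from ASNS to ALDH1L2, and SLC7A11 overlaps in all groups.

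Over all members, 28 had every blood-derived array above every adipose array (13.9% of all genes) and 0 had them all below (12.9%). Adipose arrays were all below bone marrow arrays in 27 members (15.5%) and all above in 2, CANX and SDF2L1 (13.9%). Blood-derived arrays were all above bone marrow arrays in 11 members (11.5%) and all below in 3 (11.5%), namely XBP1, DDIT3 and AARS1. Of the 11, 9 were chaperones and the other 2 EDEM1 and SEC61B, and none belonged to the amino acid response.

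**Figure D4:**
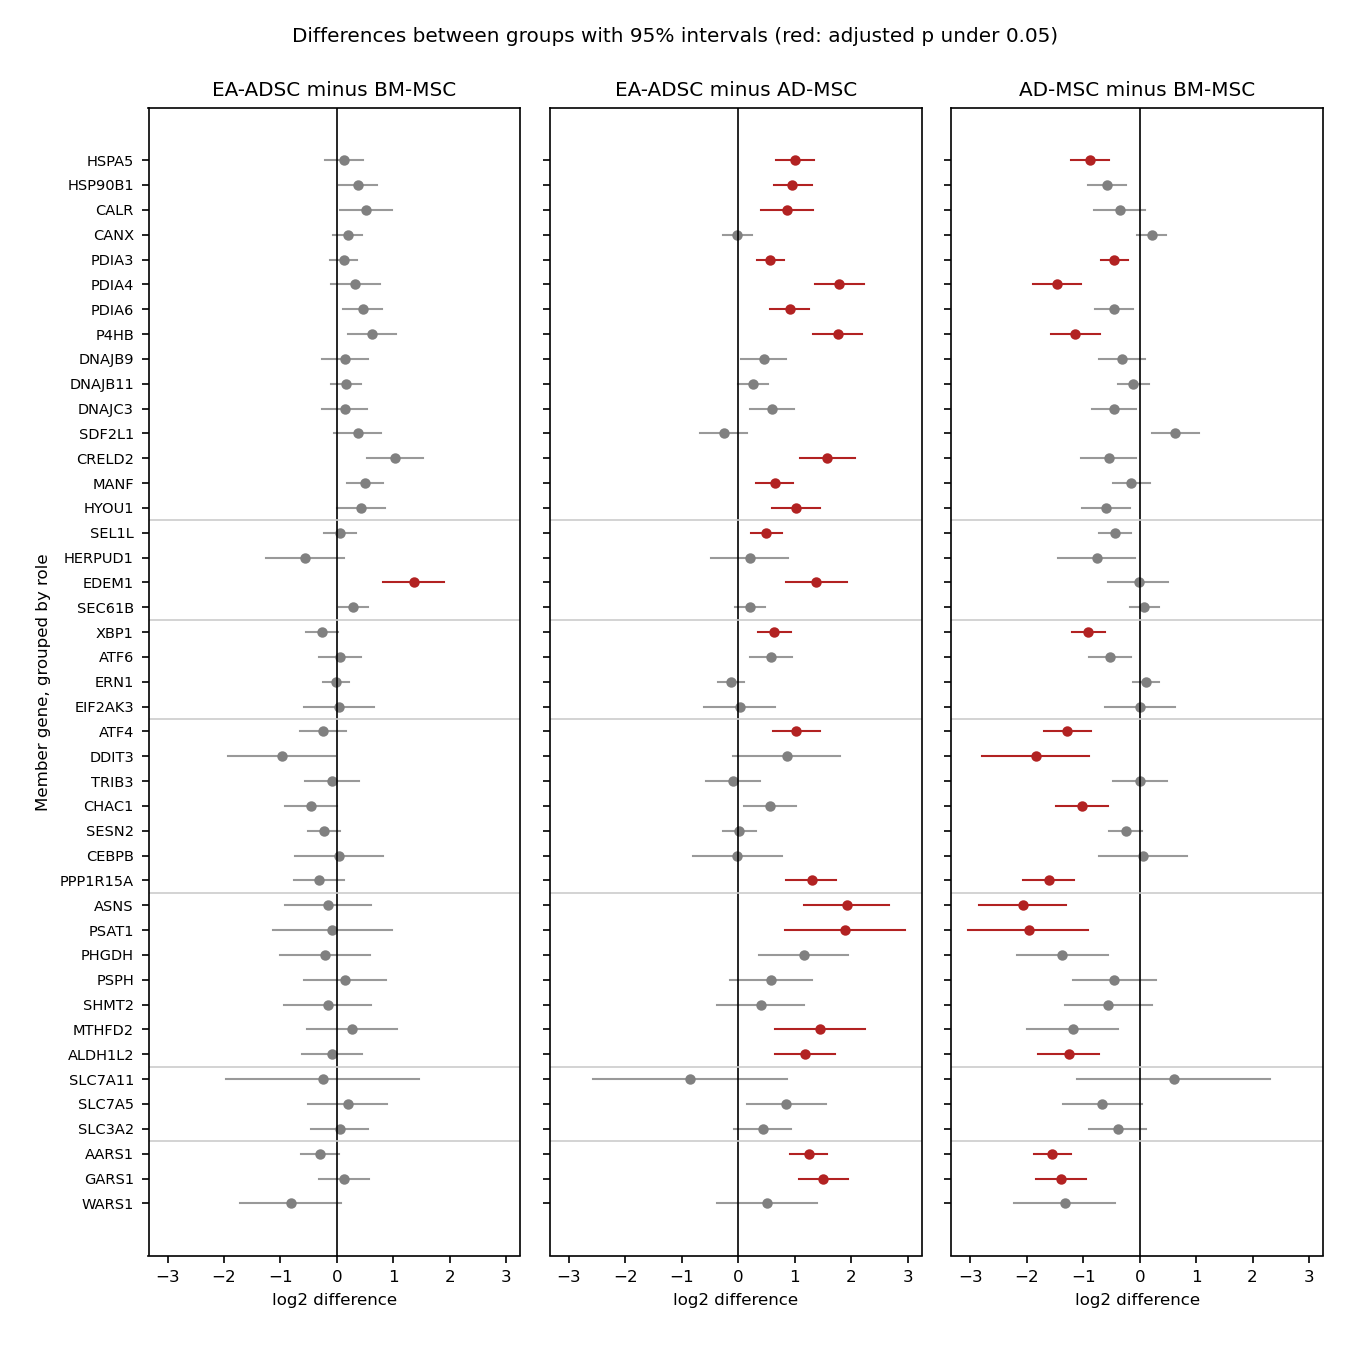
Log2 difference (points) with its 95% interval (lines) for each of the 43 members in the 3 comparisons, in red where the adjusted p was under 0.05. The left panel has 1 red point, EDEM1, the middle panel 21, all to the right of 0, and the right panel 14, all to the left of 0.

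Replicates of 1 group did not move as a block across the response. Among the adipose arrays, replicate 2 was the highest in 14 of the 15 chaperones and in 7 of the 7 synthesis enzymes, against 32.2% of all genes. The same array was the lowest of its group in 5 of the 7 regulators around ATF4 (38.6% of all genes) and the highest in 0 of them. It was also the highest adipose array in 16 of 17 cell cycle genes, with a mean over these genes of 8.22 against 6.70 and 7.19. Among the blood-derived arrays, replicate 2 was the highest in 17 of 17 cell cycle genes and in 9 of 15 chaperones (29.5% of all genes), but the lowest in 6 of 7 synthesis enzymes and in 5 of 7 regulators (36% of all genes). Bone marrow replicate 3 was the lowest of its group in 7 of 7 synthesis enzymes and in 11 of 17 cell cycle genes (34.8% of all genes). The spread within groups had a median SD of 0.21 over the chaperones and 0.43 over the amino acid response members, compared with 0.20 over all genes.

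**Figure D5:**
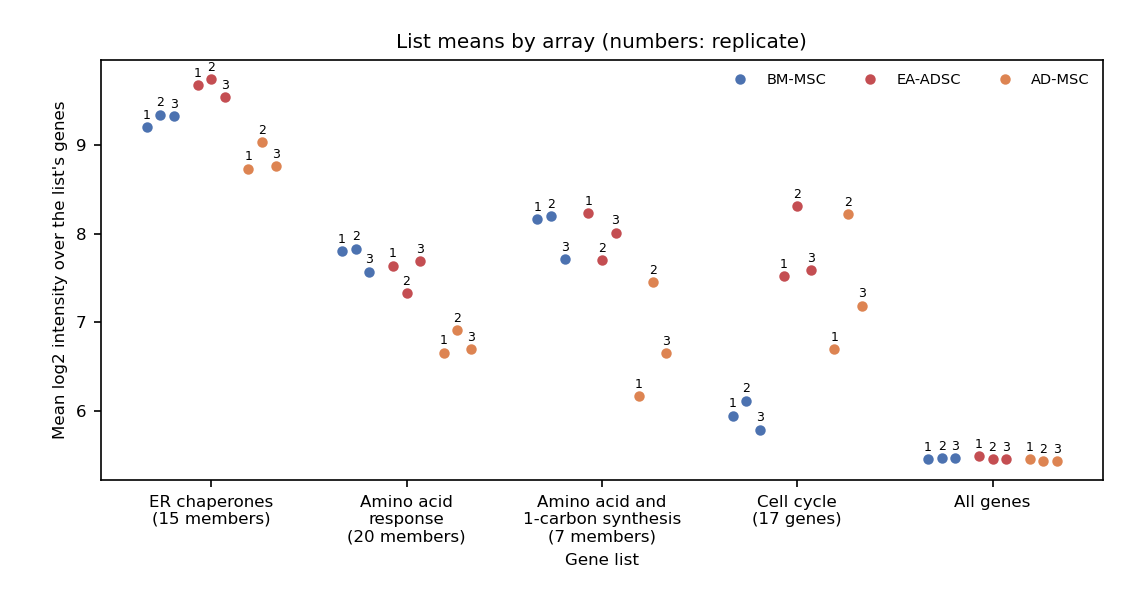
Mean log2 intensity over the genes of each list on each array, labelled with the replicate number, for bone marrow (blue), blood-derived (red) and adipose cells (orange). The adipose arrays are lowest for the chaperones (8.73 to 9.03) and the amino acid response (6.66 to 6.91), while in the cell cycle list adipose replicate 2 (8.22) lies near the blood-derived arrays and the bone marrow arrays are lowest.

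Other genes of these pathways were read from lists that are no members. Of all 16661 genes, 4.99% were called higher and 4.15% lower in blood-derived than adipose cells, and 4.75% lower and 3.44% higher in adipose than bone marrow cells. Between blood-derived and bone marrow cells 0.696% were called lower. Among 16 further folding genes, 7 were higher in blood-derived than adipose cells and 6 were lower in adipose than bone marrow cells, with 0 in the opposite directions. SERPINH1, the collagen chaperone HSP47, was at 10.21, 9.29 and 10.42 in bone marrow, 10.80, 10.71 and 10.25 in blood-derived and 6.88, 7.19 and 6.73 in adipose arrays. Its adipose arrays lay more than 2 units below all others, 12.6-fold under blood-derived cells (adjusted p = 4.33e-04) and 8.22-fold under bone marrow cells (adjusted p = 0.001). P3H1, a collagen prolyl 3-hydroxylase, was 3.83-fold lower in adipose than blood-derived cells (adjusted p = 4.65e-04), and TXNDC5, a disulfide isomerase, 2.99-fold lower (adjusted p = 9.82e-04). Against bone marrow cells they were 2.67-fold and 2.23-fold lower (adjusted p = 0.00221 and 0.00442). The collagen genes COL1A1 and COL1A2, which encode a main cargo of this machinery, were 5.65-fold and 6.53-fold lower in adipose than blood-derived cells and 6.12-fold and 8.65-fold lower than in bone marrow cells, and their part in the chaperone differences was not tested.

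Of 26 further degradation and translocation genes, 2 were higher in blood-derived than adipose cells, RPN1 (2.41-fold, adjusted p = 0.00117) and RPN2 (1.91-fold, adjusted p = 0.00625), both subunits of the oligosaccharyltransferase. RPN2 was named after its values were seen. RPN1 was the 1 gene of this list called lower in adipose than bone marrow cells. Both counts are near the shares of all genes called. Among 14 further sensors and kinases, CREB3L1, an ER-bound transcription factor of matrix-secreting cells, was the 1 gene called between blood-derived and bone marrow cells. It was at 7.20, 7.10 and 7.45 in bone marrow, 6.23, 6.39 and 6.10 in blood-derived and 5.82, 5.40 and 5.70 in adipose arrays. The groups did not overlap, and bone marrow cells were 2.01-fold above blood-derived cells (adjusted p = 0.0304) and 3.05-fold above adipose cells (adjusted p = 0.00101). MBTPS1, the protease that cleaves ATF6, was the other gene called, 1.62-fold lower in adipose than bone marrow cells (adjusted p = 0.0296), and was named after its values were seen.

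Among 22 further ATF4 targets, 8 were higher in blood-derived than adipose cells and 0 lower, and adipose cells were lower than bone marrow cells in 6 and higher in 1. PYCR1, an enzyme of proline synthesis, was 2.65-fold lower in adipose than blood-derived cells (adjusted p = 7.96e-04) and 2.38-fold lower than in bone marrow cells (adjusted p = 0.00143). VLDLR, a lipoprotein receptor, was 7.36-fold lower in adipose than blood-derived cells (adjusted p = 0.00282), and VEGFA, an angiogenic factor also induced by hypoxia, 7.03-fold lower than in bone marrow cells (adjusted p = 0.00225). The 1 gene higher in adipose than bone marrow cells, CTH, which makes cysteine, was at 7.38 ± 0.52 against 6.07 ± 0.19 (adjusted p = 0.023) and was named after its values were seen.

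Of 15 further tRNA synthetases, MARS1 (named likewise) was the 1 with a call. It was 2.07-fold lower in adipose than in blood-derived (adjusted p = 0.013) and bone marrow cells (adjusted p = 0.014), and the medians of this list were 0.26 for blood-derived against adipose and -0.28 for adipose against bone marrow cells. Neither cytosolic heat shock genes (10 measured) nor mitochondrial chaperones and proteases (8 measured) had a call between blood-derived and adipose cells. Their medians were 0.13 and -0.03. An unadjusted p under 0.05 was seen in 3 and 2 of these genes, against 3976 of all 16661 genes. HSPA4L, a cytosolic Hsp110 protein, was lower in blood-derived (2.22-fold, adjusted p = 0.0478) and adipose cells (2.68-fold, adjusted p = 0.00583) than in bone marrow cells. Of 7 further serine and folate genes 2 were lower in blood-derived than adipose cells. These were the cytosolic enzymes ALDH1L1, at 5.26 ± 1.36 against 8.73 ± 0.79 (adjusted p = 0.0153), and MTHFD1, at 6.67 ± 0.17 against 7.29 ± 0.19 (adjusted p = 0.0395), both named after their values were seen. Their direction is opposite to that of the mitochondrial members ALDH1L2 and MTHFD2.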

How the data were processed

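The 9 arrays hold 3 groups of 3, taken from the sample titles. The authors deposited log2 intensities, 1 per probe set and array; the log2 scale was read from the values. Transcriptome Analysis Console 3, Partek 6.16.0419 and Expression Console are listed in the submitters' processing notes, with summarization, normalization and genome build not given in the sources used here. Array medians lay between 4.56 and 4.66, and the values were used as deposited. The platform annotation gave 1 gene to 16789 probe sets, several to 343 and none to 13427. For a gene with several probe sets the one of highest mean was taken.

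With limma 3.58.1 in R 4.3.3, group means were fitted over all 30559 probe sets (6 residual degrees of freedom), with two-sided moderated tests and Benjamini-Hochberg adjustment over all probe sets. The 3 arrays per group limit the precision, the median SE of a difference being 0.19, and p-values measure the spread between these samples. Labels name different horses for bone marrow and blood-derived samples and none for adipose samples. If adipose arrays share a horse, the p-values of comparisons with them do not cover the spread between adipose donors. The procedure was tested on simulated data. Alternatives were quantile normalization, median centring, leaving out dim probe sets, averaging a gene's probe sets, limma with an intensity trend, a replicate block, 2 groups alone and leaving out each array.

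Named genes were all members with a call and, per role, the member of largest difference, in full, with the rest by means or ranges. SDF2L1, PHGDH and WARS1 were also given array by array, outside this rule. Of 8 pathway lists, up to 6 called genes per comparison were named by adjusted p. Members and lists were chosen with earlier results of these data known. No sequences were used here.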

Additional observations from a re-analysis of the deposited data

How the results depend on the processing

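The direction of every called member difference held under all settings that were run. Between blood-derived and bone marrow cells the 249 probe sets called became 479 without dim probe sets and 499 with a gene's probe sets averaged, and 86 to 384 without 1 array. The 1 member called higher there became 0 after median centring, 2 with dim probe sets left out or probe sets averaged, and 0 to 2 without 1 array. With the 2 groups alone that count was again 1, but the gene was CRELD2 (adjusted p = 0.0301) and not EDEM1. Between blood-derived and adipose cells the 2116 probe sets became 1029 with the 2 groups alone and 1176 to 2037 without 1 array, and the 21 members became 12 and 13 to 21. For adipose against bone marrow cells 1857 probe sets became 849 to 2012 and 14 members 8 to 17 without 1 array, and the 0 members called higher became 1, SDF2L1, with quantile normalization or averaged probe sets. The F test called 10 to 20 members without 1 array. The median of the amino acid response was 0.61 to 0.99 (blood-derived minus adipose) and -1.35 to -1.03 (adipose minus bone marrow) without 1 array.

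Residuals of same-numbered arrays correlated at -0.02 to 0.12, and those of arrays with different numbers at -0.12 to 0.04. With 3 arrays per group these values cannot decide whether the replicate numbers pair any samples. With the replicate number as a block, 16 members were higher in blood-derived than adipose cells and 11 lower in adipose than bone marrow cells, and the single call of EDEM1 against bone marrow cells was kept. The calls lost were those of MANF (adjusted p = 0.071), SEL1L (0.0795), XBP1 (0.0509), PSAT1 (0.0628) and MTHFD2 (0.0838) in the former comparison and of PDIA3 (0.0884), DDIT3 (0.0596) and PSAT1 (0.0583) in the latter. Whether dim members such as ERN1 lie above background could not be judged.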
